A study of Homo sapiens with 6 samples.

Results

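The 14-3-3 family was described gene by gene in HaCaT cells, an immortalized line of human keratinocytes. Its 7 genes, *YWHAB*, *YWHAE*, *YWHAG*, *YWHAH*, *YWHAQ*, *YWHAZ* and *SFN*, were taken by symbol from the deposited table, which holds 12499 genes, and all 7 passed the filter on low counts. Cells of both groups were infected with a lentivirus for 48 hours and then kept in high-glucose (HG) medium for 24 hours. The virus carried the coding sequence of *ATF7* in the group LV-*ATF7* and was the negative control virus in the group LV-NC. Poly(A) mRNA of 3 replicates per group was sequenced, so there were 6 libraries. The comparison asked which genes differ when a lentivirus meant to raise *ATF7*, a transcription factor of the CREB/ATF group, is added under HG. All libraries come from 1 cell line, no group without virus or without HG was part of it, and nothing in the labels says that replicates were separate cultures, so p-values measure the spread between these libraries, which may be technical.

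14-3-3 proteins are small cytoplasmic adaptors that work as dimers. Each subunit has a groove that holds a phosphorylated serine or threonine of a client protein, and binding hides, holds or reshapes that client. Clients include CDC25 cell cycle phosphatases, FOXO factors, *YAP1* and the death factor *BAD*. Kinases such as AKT write the sites and phosphatases such as PP2A remove them. Most isoforms are found in nearly every tissue and dimerize with each other, while *SFN* (14-3-3 sigma, also called stratifin) is an epithelial isoform that mainly pairs with itself and marks differentiating keratinocytes.

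The promoters of *YWHAH* and *SFN* are shown first, because these genes moved furthest down and furthest up in the family and because *ATF7* belongs to a group of factors known to bind the cAMP response element (CRE), TGACGTCA. The sequences are RefSeq's for GRCh38.p14 and run from 250 bases before to 50 bases after the annotated start, 300 bases in all, on the plus strand. That of *YWHAH* is chr22:31944285-31944584 and that of *SFN* is chr1:26862899-26863198. Capitals mark the full CRE and the GC box GGGCGG, the letters bound by SP1-type factors, on either strand.
YWHAH promoter: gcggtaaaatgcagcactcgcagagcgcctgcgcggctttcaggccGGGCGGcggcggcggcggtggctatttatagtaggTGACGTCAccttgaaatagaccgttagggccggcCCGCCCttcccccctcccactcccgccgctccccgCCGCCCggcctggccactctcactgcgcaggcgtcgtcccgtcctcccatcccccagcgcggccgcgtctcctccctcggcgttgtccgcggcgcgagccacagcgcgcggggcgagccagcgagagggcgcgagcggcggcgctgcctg
SFN promoter: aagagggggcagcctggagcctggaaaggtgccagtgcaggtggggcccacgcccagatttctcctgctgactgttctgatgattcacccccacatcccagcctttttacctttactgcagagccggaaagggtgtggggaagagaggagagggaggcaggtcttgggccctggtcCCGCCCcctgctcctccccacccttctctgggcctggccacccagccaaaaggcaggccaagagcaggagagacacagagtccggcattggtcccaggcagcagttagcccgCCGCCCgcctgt

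The RefSeq table held the promoters of 6 of the 7 genes, all but that of *YWHAZ*. Of these 6, *YWHAH* alone held the full CRE, at chr22:31944366-31944373, which is 169 bases before the RefSeq start and 95 bases before the start that GENCODE release 29 gives, and 1.85% of all promoters in the table, 649 of 35116, held it on either strand. The AP-1 site TGACTCA was in none of the 6 and in 4.95% of all promoters. GC boxes numbered 4 in *YWHAB*, *YWHAG* and *YWHAQ*, 3 in *YWHAH*, 2 in *SFN* and 1 in *YWHAE*, and 45.0% of all promoters held at least 1. The CCAAT box was found once in *YWHAB* and *SFN* and 3 times in *YWHAQ*, against 34.6% of all promoters with at least 1. Among the 10108 tested genes with a promoter in the table the shares were 3.29% for the full CRE and 3.14% for the AP-1 site. They were 70.1% for the GC box and 36.7% for the CCAAT box. *SFN* had the lowest GC content of the 6, 63.7%, where the others had 69.7% to 73.7%. These motifs were picked after the promoters had been read, a match describes letters and not a bound site, and no binding was measured in these libraries. Of the 333 tested genes with a full CRE, 149 (44.7%) were called lower and 78 (23.4%) higher. Of all 10108 tested genes with a promoter in the table, 33.6% were called lower and 33.7% higher. The other motifs had more genes called lower than higher too. The shares were 38.1% and 29.3% for the CCAAT box, 37.5% and 34.4% for the AP-1 site and 34.5% and 32.8% for the GC box. These shares describe genes that differ in many other ways.

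Total counts per library were 16686472 to 20562768. Expression is given as CPM, counts scaled to the size of the library, after TMM scaling, with mean ± SD over 3 libraries. Fold changes are of the libraries labeled LV-*ATF7* over those labeled LV-NC, from edgeR's quasi-likelihood test. P-values were adjusted over 12462 genes by the Benjamini-Hochberg method, and a gene is called when its adjusted p is under 0.05. *ATF7* itself went against the labels, with 50.6, 46.4 and 52.2 CPM under the label LV-NC against 21.9, 25.7 and 28.0 CPM under LV-*ATF7* (log2 fold change -0.98, adjusted p = 1.89e-04), so every direction below follows the labels only. The library labeled LV-NC replicate 1 stood apart from the other LV-NC libraries (r = 0.967 and 0.969 with them across genes, where they had 0.994 with each other). Results whose call or size turns on it are given with and without it, or library by library. All 12 keratinocyte markers had counts, summing to 2245 to 2894 CPM in LV-NC and 6919 to 7470 CPM in LV-*ATF7*. *KRT5*, at 99.96 to 355.5 CPM in LV-NC and 3215 to 3622 CPM in LV-*ATF7*, made up much of the sum in LV-*ATF7* but little of it in LV-NC. The basal keratin *KRT14* was low and called lower, at 0.375, 12.5 and 11.3 CPM in LV-NC and 1.45, 1.38 and 1.82 CPM in LV-*ATF7*, and the desmosomal cadherin *DSC3* was called lower too (log2 fold change -0.56). Of the markers of other cells, 3 of 7 for fibroblasts (33.1 to 42.7 CPM in LV-NC and 17.3 to 21.7 CPM in LV-*ATF7*), 3 of 6 for macrophages (5.57 to 8.13 and 9.38 to 12.7 CPM), 2 of 5 for melanocytes (17.5 to 24.8 and 12.2 to 13.0 CPM) and 2 of 5 for endothelial cells (1.12 to 5.50 and 84.6 to 89.9 CPM) had counts. The fibroblast sum covers only the 2 markers that passed the filter on low counts. The markers *PTPRC*, *PECAM1*, *MLANA* and *COL1A2* were not among the genes of the table, but others of the same lists were. The endothelial *CDH5* had 0.642, 3.72 and 4.86 CPM in LV-NC and 81.0, 86.2 and 85.9 CPM in LV-*ATF7* (log2 fold change 4.78, adjusted p = 6.90e-05). *VWF* (2.14), *CD14* (2.33) and *PMEL* (1.13) were called higher too, and *COL1A1* (-1.13), *CSF1R* (-2.18) and *MITF* (-1.21) lower. The part of other cells in the results below was not tested.

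*YWHAH* was lower and *SFN* higher in every LV-*ATF7* library than in any LV-NC library, *YWHAZ*, *YWHAG* and *YWHAE* fell, and *YWHAQ* and *YWHAB* did not pass the test. Thus 5 of the 7 genes were called, where 67.6% of all genes tested were called, so the number of calls in the family is near that of the whole table. One direction did not hold for all: 1 gene was called higher, where 34.7% of all genes were, and 4 were called lower, where 32.9% were. A fold of at least 1.5 beside the call was met by 3 of the 7, *YWHAH*, *YWHAZ* and *SFN*, and by 52.9% of all genes. The groups did not overlap for 5 of the 7, and for 72.7% of all genes. The median log2 fold change of the family was -0.43 and that of all genes tested was 0.00.

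*YWHAH* (14-3-3 eta) is the isoform best known from brain. The gene lies on the plus strand at chr22:31944461-31957603 (GRCh38, GENCODE release 29). It had 111.8, 131.8 and 120.6 CPM in LV-NC replicates 1, 2 and 3 and 52.7, 55.3 and 53.9 CPM in the LV-*ATF7* replicates. The highest LV-*ATF7* library was below 50% of the lowest LV-NC library. Mean expression was 121.4 ± 9.99 CPM in LV-NC and 53.9 ± 1.28 CPM in LV-*ATF7*, a log2 fold change of -1.17 (SE 0.096, adjusted p = 2.38e-05), or 2.25-fold lower. In such bulk libraries, fewer cells that express a gene and less RNA per cell cannot be told apart. Of all 12462 genes tested, 1316 had a lower log2 fold change, so *YWHAH* stood at percentile 10.6 of the table. Some of its exon bases overlap other annotated genes, 4.28% on the same strand and 0.897% on the opposite strand, and the counting of such reads is not given in the sources used here.

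*SFN*, the epithelial isoform and a cell cycle brake, was the member that rose. It is a gene of 1 exon, 1320 bases long, at chr1:26863138-26864457 on the plus strand. It had 202.5, 420.2 and 414.7 CPM in LV-NC replicates 1, 2 and 3 and 916.9, 908.3 and 1025 CPM in LV-*ATF7*. Every LV-*ATF7* library was above every LV-NC library, and LV-NC replicate 1 was at 0.485 of the mean of the other LV-NC libraries. The means were 345.8 ± 124.1 and 950.1 ± 65.0 CPM, a log2 fold change of 1.46 (SE 0.26, adjusted p = 0.00135), or 2.75-fold higher. Without LV-NC replicate 1 the log2 fold change was 1.17, and the call was kept. *SFN* stood at percentile 87.6 of all genes tested.

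**Figure D1:**
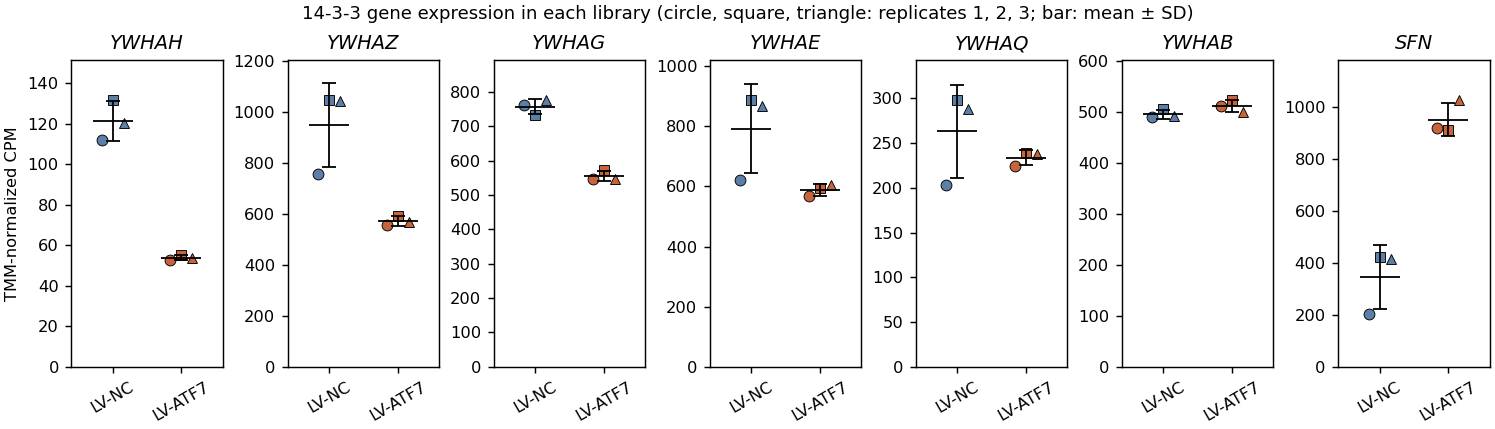
TMM-normalized CPM (y axis, linear, from 0, with a scale of its own in each panel) of the 7 14-3-3 genes in the 3 LV-NC libraries (blue) and the 3 LV-*ATF7* libraries (orange), with mean ± SD. *YWHAH* lay at 111.8 to 131.8 CPM in LV-NC and at 52.7 to 55.3 CPM in LV-*ATF7*, *SFN* was higher in all LV-*ATF7* libraries, and LV-NC replicate 1 (circle) was low for *SFN*, *YWHAZ*, *YWHAE* and *YWHAQ*.

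*YWHAZ* (14-3-3 zeta), an abundant isoform that binds many survival factors, fell after *YWHAH* by the most. It had 756.0, 1046 and 1043 CPM in LV-NC and 555.8, 591.7 and 566.6 CPM in LV-*ATF7*. The groups did not overlap, and LV-NC replicate 1 was the nearest to LV-*ATF7*, at 0.724 of the mean of the other LV-NC libraries. The log2 fold change was -0.73 (SE 0.14, adjusted p = 0.00207), 1.66-fold lower, and -0.89 without that library. *YWHAZ* has 8 annotated pseudogenes, the most of the family, and 2.22% of the 100-base stretches of its transcripts, 208 of 9359, occur exactly in other genes' transcripts, so its count carries that uncertainty. *YWHAE* has 6 annotated pseudogenes, *YWHAQ* 4 and *YWHAB* 2, but no such stretch of theirs occurred in another gene's transcripts.

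*YWHAG* (14-3-3 gamma), known from brain and muscle and the member closest to *YWHAH* in sequence, fell with little spread. It lies on the minus strand at chr7:76326794-76359031. It had 761.7, 734.6 and 776.8 CPM in LV-NC and 547.5, 573.0 and 547.0 CPM in LV-*ATF7*. No library of one group came near the other group, and LV-NC replicate 1 was at 1.01 of the other LV-NC libraries. The log2 fold change was -0.45 (SE 0.088, adjusted p = 0.00237).

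The coding sequences of *YWHAG* and *YWHAH* share 78.5% of their bases, the highest of any pair of members, yet no stretch of 100 bases was shared between any members' transcripts. *YWHAH* counts were 14.7%, 17.9% and 15.5% of *YWHAG* CPM in LV-NC and 9.62%, 9.64% and 9.85% in LV-*ATF7*. This ratio was lower in every LV-*ATF7* library than in any LV-NC library (two-sided exact permutation p = 0.10, the smallest that 3 against 3 allows).

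*YWHAE* (14-3-3 epsilon), which forms mostly heterodimers with other members, was called lower with less certainty. It lies on the minus strand at chr17:1344272-1400378. It had 621.8, 887.4 and 869.1 CPM in LV-NC and 566.9, 593.7 and 604.4 CPM in LV-*ATF7*. LV-NC replicate 1 was only just above the highest LV-*ATF7* library, whereas the other LV-NC libraries were well above. The log2 fold change was -0.43 (SE 0.15, 95% interval -0.77 to -0.09, adjusted p = 0.0294). The call was lost in 5 of the 6 fits that left out 1 library (adjusted p = 0.0591 to 0.0990), each of which kept LV-NC replicate 1, and without that library the log2 fold change was -0.60 (adjusted p = 2.22e-09).

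*YWHAQ* (14-3-3 theta, also called tau), first described in T cells, did not pass the test. It lies on the minus strand at chr2:9583972-9631014. It had 203.5, 298.0 and 287.5 CPM in LV-NC and 223.9, 239.4 and 238.0 CPM in LV-*ATF7*. LV-NC replicate 1 was below all LV-*ATF7* libraries and the other LV-NC libraries were above them, so the groups overlapped. The log2 fold change was -0.17 (95% interval -0.51 to 0.17, adjusted p = 0.330), and without LV-NC replicate 1 it was -0.34 (adjusted p = 4.36e-05).

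*YWHAB* (14-3-3 beta), another widely expressed isoform, had the most even expression of the family. It lies on the plus strand at chr20:44885676-44908532. It had 489.8, 506.2 and 491.8 CPM in LV-NC and 511.6, 523.8 and 500.1 CPM in LV-*ATF7*. The groups overlapped and all 6 libraries lay within a narrow band. The log2 fold change was 0.05 (95% interval -0.15 to 0.24, adjusted p = 0.651), and its sign turned to -0.12 with scaling by library size only, a scaling that lowered the median of all genes by 0.16.

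Without LV-NC replicate 1, 6 of the 7 genes were called, where 80.1% of all genes then tested were. The ratio of that library to the mean of the other LV-NC libraries was 0.485 for *SFN*, 0.695 for *YWHAQ*, 0.708 for *YWHAE*, 0.724 for *YWHAZ*, 0.886 for *YWHAH*, 0.982 for *YWHAB* and 1.01 for *YWHAG*. The coefficient of variation was lower in LV-*ATF7* than in LV-NC for *SFN* (6.84% against 35.9%), *YWHAQ* (3.66% against 19.7%), *YWHAE* (3.28% against 18.7%), *YWHAZ* (3.22% against 17.6%) and *YWHAH* (2.38% against 8.23%), near the same for *YWHAG* (2.68% against 2.82%) and higher for *YWHAB* (2.32% against 1.80%).

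**Figure D2:**
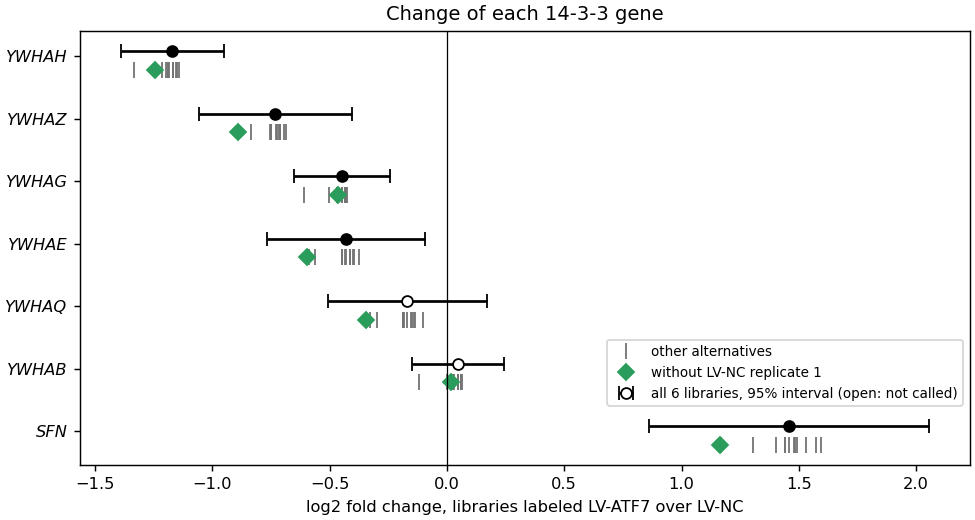
Log2 fold change (x axis) of each 14-3-3 gene, libraries labeled LV-*ATF7* over LV-NC, from all 6 libraries with its 95% interval (circle, open where not called), without LV-NC replicate 1 (green diamond) and under the other alternatives (ticks). *YWHAH* stayed between -1.33 and -1.14 and *SFN* between 1.17 and 1.59, while *YWHAB* turned sign and *YWHAQ* stayed below 0.

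To compare levels between genes, counts were divided by the length of exons counted once and expressed per kilobase of exon on the CPM scale (level per length). In LV-NC, *SFN* had the highest mean level per length, 262.0 ± 94.0, followed by *YWHAE* at 206.1 ± 38.6 and *YWHAG* at 202.1 ± 5.70. *YWHAZ* followed at 110.9 ± 19.5, *YWHAQ* at 96.9 ± 19.1, *YWHAB* at 62.5 ± 1.12 and *YWHAH* at 49.5 ± 4.07. The first 3 overlapped each other, as did *YWHAZ* and *YWHAQ*, and *YWHAH* was below all others in every library.

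In LV-*ATF7* the level per length of *SFN* was 719.8 ± 49.2, far above *YWHAE* at 152.9 ± 5.02 and *YWHAG* at 148.2 ± 3.98, which overlapped. *YWHAQ* came next at 86.2 ± 3.15, then *YWHAZ* at 66.8 ± 2.15 and *YWHAB* at 64.5 ± 1.496, which overlapped, and *YWHAH* at 21.99 ± 0.523. The order depends on the length used. *YWHAE* and *YWHAG*, near each other above, were apart with the other lengths. With the deposited FPKM *YWHAG* had the higher mean, 216.4 against 70.7 in LV-NC and 141.7 against 47.0 in LV-*ATF7*. With the longest transcript as length *YWHAE* had the higher mean, 358.6 against 202.1 in LV-NC and 266.1 against 148.2 in LV-*ATF7*. With the deposited FPKM, *YWHAZ* was below *YWHAQ* in both groups, at a mean of 27.8 against 45.2 in LV-NC and 15.0 against 36.0 in LV-*ATF7*. With the longest transcript as length, *YWHAZ* had the higher mean in both, 180.7 against 118.7 in LV-NC and 108.9 against 105.5 in LV-*ATF7*, and *YWHAE* rather than *SFN* had the highest mean in LV-NC, 358.6 against 262.0. *YWHAH* had the lowest mean in both groups, and *SFN* the highest in LV-*ATF7*, under all 3 lengths. This comparison of lengths for the order was chosen after seeing the data.

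Summed over the 7 genes, the family took 3725 ± 500.5 CPM in LV-NC and 3465 ± 81.6 CPM in LV-*ATF7*, and the groups overlapped. Without *SFN* the sum was 3379 ± 376.4 and 2515 ± 59.4 CPM, with no overlap. Per length the whole family rose from 989.9 ± 174.1 to 1260 ± 51.2 without overlap, so the direction of the sum depends on whether longer transcripts weigh more.

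The makeup of the family turned toward *SFN*. *SFN* made up 19.4%, 29.1% and 28.9% of the summed level per length in LV-NC and 56.9%, 55.4% and 58.9% in LV-*ATF7*, a difference of 31.3 percentage points. The share of each of the other 6 genes was lower in every LV-*ATF7* library than in any LV-NC library. *YWHAE* went from 20.8% to 12.1%, *YWHAG* from 20.9% to 11.8%, *YWHAZ* from 11.2% to 5.30%, *YWHAQ* from 9.77% to 6.84%, *YWHAB* from 6.45% to 5.13% and *YWHAH* from 5.07% to 1.75%. Shares sum to 100, so they are not independent of each other, and each of the 7 comparisons gave the smallest p that 3 against 3 allows (two-sided exact permutation p = 0.10).

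The ratio of *SFN* to *YWHAH* per length was 3.36, 5.92 and 6.39 in LV-NC and 32.3, 30.5 and 35.4 in LV-*ATF7*. With the deposited FPKM in place of exon length, the falls in share were -1.85 points for *YWHAH*, -2.48 for *YWHAZ*, -5.38 for *YWHAE* and -17.4 for *YWHAG*, where exon length gave -3.33, -5.90, -8.65 and -9.13.

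**Figure D3:**
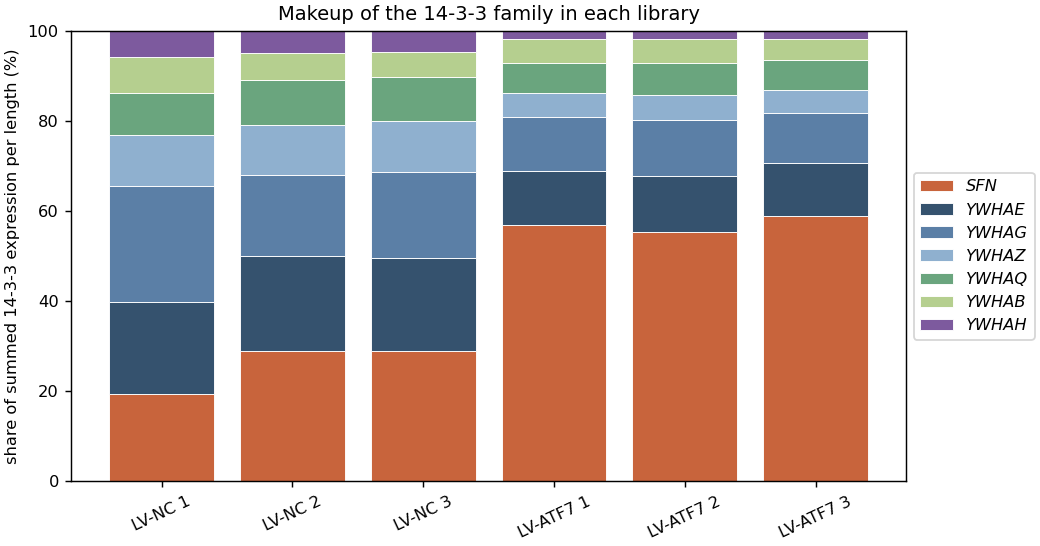
Share of each gene in the summed 14-3-3 level per length (y axis, %, from 0 to 100) in each of the 6 libraries, as stacked bars. *SFN* took 19.4% to 29.1% in LV-NC and 55.4% to 58.9% in LV-*ATF7*, and *YWHAH*, at the top, went from a mean of 5.07% to 1.75%.

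Regulators known for *SFN* moved in both directions, and of 13 listed and tested, 5 were called higher and 2 lower, 53.8% in all, where 67.6% of all genes were called, 34.7% higher and 32.9% lower. *TP63*, the factor that sets epidermal identity, had 18.3, 12.6 and 15.7 CPM in LV-NC and 238.1, 237.2 and 219.0 CPM in LV-*ATF7* (log2 fold change 3.90, adjusted p = 1.18e-06). *TP73*, a factor related to *TP63*, had 10, 7 and 16 counts in LV-NC and 348, 373 and 380 counts in LV-*ATF7* (log2 fold change 5.02, adjusted p = 3.66e-06). For *TP63*, *TP73* and *SFN* the groups did not overlap, which held for 72.7% of all genes. Within LV-NC, replicate 1 had the highest *TP63* but the lowest *SFN*, at 202.5 CPM against 420.2 and 414.7 CPM. A link between these genes was not tested.

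Among the other regulators of *SFN*, *KLF4*, a differentiation factor, fell (log2 fold change -1.11), as did *EZH2*, the histone methyltransferase of Polycomb (-0.73). *KLF4* was at 212.9 CPM in LV-NC replicate 1 and at 107.7 and 112.4 CPM in the other LV-NC libraries. *DNMT3A*, a DNA methyltransferase, and *HDAC2*, a histone deacetylase, were called higher, with log2 fold changes of 1.63 and 0.69. *DNMT3A* was at 23.1 CPM in LV-NC replicate 1, at 8.39 and 7.81 CPM in the other LV-NC libraries and at 39.0, 41.0 and 42.0 CPM in LV-*ATF7*. *TRIM25*, the ligase that marks *SFN* protein for breakdown, had a log2 fold change of -0.19 and was not called (adjusted p = 0.381), but it was -0.39 and called without LV-NC replicate 1 (adjusted p = 3.84e-05). *KLF4* kept its call at -0.74 without that library. Of the 13 regulators, 12 were called without it, in a fit that called 80.1% of all genes.

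**Figure D4:**
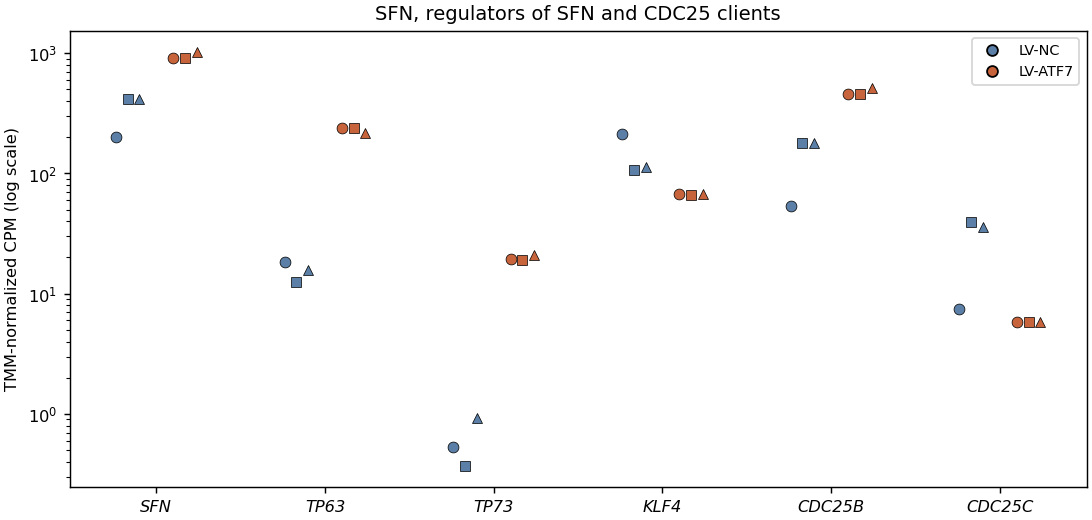
TMM-normalized CPM (y axis, log scale) of *SFN*, of its regulators *TP63*, *TP73* and *KLF4* and of the 14-3-3 clients *CDC25B* and *CDC25C* in each library (circle, square and triangle for replicates 1, 2 and 3). *SFN*, *TP63* and *TP73* were higher in the 3 LV-*ATF7* libraries and *KLF4* was lower. LV-NC replicate 1 lay apart for *CDC25B* and *CDC25C*.

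Client proteins of 14-3-3 were counted from a list of 61, of which 59 were tested and HSPB6 and KCNK3 were not analyzed here. Of these, 24 were called higher and 14 lower, 64.4% in all and near the 67.6% of all genes, with a median log2 fold change of 0.05. *CDC25B*, a phosphatase that starts mitosis, had 53.8, 180.8 and 177.5 CPM in LV-NC and 453.9, 458.7 and 515.1 CPM in LV-*ATF7* (log2 fold change 1.79). *CDC25C*, the related phosphatase, had 7.44, 39.6 and 36.1 CPM in LV-NC and 5.86, 5.76 and 5.86 CPM in LV-*ATF7* (log2 fold change -2.25, adjusted p = 0.00629). These related clients moved in opposite directions, and for both LV-NC replicate 1 was the lowest LV-NC library. Without it the log2 fold change was 1.39 for *CDC25B* and -2.72 for *CDC25C*, and both were called.

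*IRS1*, the insulin receptor adaptor, and *MLXIPL*, a glucose-responsive factor, rose most among the clients, by log2 fold changes of 2.31 and 2.18, both from means near 2 CPM. Without LV-NC replicate 1 the log2 fold change of *IRS1* was 3.04 and that of *MLXIPL* was 2.52. *ULK1*, the autophagy kinase, fell from 464.4 ± 66.6 to 116.6 ± 10.96 CPM (log2 fold change -1.99). *YAP1*, the Hippo effector, rose modestly (0.47, adjusted p = 0.00511) and lost the call with scaling by library size only (adjusted p = 0.0540). *BAD* fell by 0.76 on the log2 scale, and its log2 fold change was -0.58 without LV-NC replicate 1, with the call kept. *FOXO1* (-0.02) and *FOXO3* (0.05) were not called.

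Keratin clients differed. *KRT18*, a keratin of simple epithelia, rose from 228.1 CPM with a log2 fold change of 0.84 (adjusted p = 0.00790). Without LV-NC replicate 1 it was 0.59, and the call was kept. *KRT17*, known to bind *SFN* in keratinocytes, was low in all libraries, at 2.89, 9.75 and 10.5 CPM in LV-NC and 3.80, 3.52 and 5.31 CPM in LV-*ATF7*. Its log2 fold change of -0.88 was not called (adjusted p = 0.111), and it was -1.29 and called without LV-NC replicate 1 (adjusted p = 1.90e-07).

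Kinases that write client sites or gate 14-3-3 binding were split. Of 40 listed, 37 were tested (PRKAA2, PRKD1 and CAMK1 were not analyzed here), and 11 were called higher and 10 lower (56.8%, where 67.6% of all genes were called), with a median log2 fold change of -0.06. *DAPK1*, a death-associated kinase, rose from 24.6, 17.8 and 17.9 to 110.9, 108.4 and 105.5 CPM (log2 fold change 2.43), and *PRKCZ*, an atypical protein kinase C, rose (1.30). *PIM2*, a survival kinase, fell (-1.72), and so did *MAPK8*, the stress kinase JNK1, from 115.9, 119.8 and 108.2 to 42.8, 43.3 and 35.4 CPM (-1.501).

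Of 18 subunits of PP1, PP2A and calcineurin and their partners, all tested, 8 were called lower and 1 higher, where 32.9% of all genes were called lower and 34.7% higher, and the median log2 fold change was -0.22. *PPP2R1B*, a PP2A scaffold subunit, fell from 86.1, 98.2 and 98.1 to 33.2, 37.0 and 31.7 CPM (log2 fold change -1.47), and *SHOC2*, a scaffold of a PP1 phosphatase complex, fell (-0.93). The gene called higher, *PPP2CA*, a PP2A catalytic subunit, was at 9.11 ± 0.425 and 12.1 ± 0.637 CPM (0.40, adjusted p = 0.0242), and its call was lost in 6 of 13 alternatives.

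**Figure D5:**
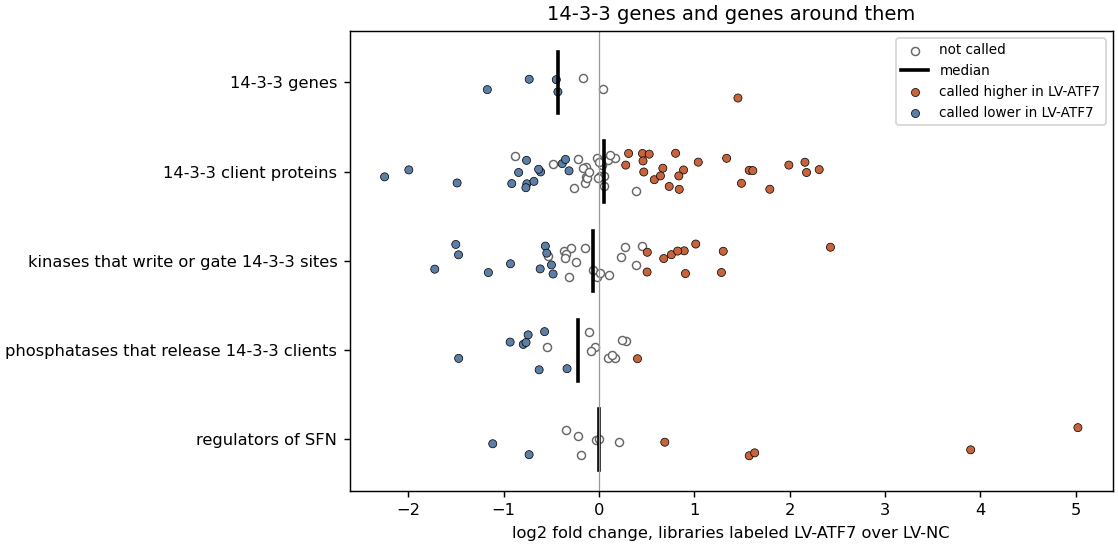
Log2 fold change (x axis) of the 14-3-3 genes and of the tested genes of 4 lists around them, with called genes filled (orange higher, blue lower) and a black bar at each median. The 14-3-3 median lay at -0.43, the phosphatases' at -0.22, and those of the other lists between -0.06 and 0.05.

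The study took *YWHAH* and its other candidates from proteins that were lower in exosomes and whose genes lay in pathways enriched in the RNA data. At the RNA level measured here, the other candidates moved unlike each other. *NOTCH1*, the Notch receptor, was called higher (log2 fold change 0.70, adjusted p = 4.51e-04), and *CTNNA1*, alpha-catenin of adherens junctions, was called lower as *YWHAH* was (-0.66, adjusted p = 6.82e-04). The paper reports the opposite direction for *NOTCH1*, with lower mRNA by qRT-PCR and lower protein in HaCaT cells given LV-*ATF7* under HG. *ATF7* itself went against the labels here, and the cause of this difference was not tested.

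The genes with the pattern over the 6 libraries closest to that of *YWHAH* were *C9orf78*, *SEC23B*, *PTTG1IP*, *CLN8* and *UBASH3B*, with a root mean square difference of centered log2 CPM of 0.036, 0.037, 0.038, 0.051 and 0.053, among 9475 genes. Those closest to *SFN* were *RCCD1* (0.033), *PTGES* (0.063), *ARHGDIB* (0.065), *VPS51* (0.079) and *LRRC45* (0.087). Within the family the closest to *YWHAH* was *YWHAZ* (0.25), at rank 1216 of all genes compared. The list is not firm: 1 of the 5 genes nearest to *YWHAH* was kept when LV-NC replicate 1 was left out, and 1 of the 5 nearest to *SFN*.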

How the data were processed

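Poly(A) mRNA of HaCaT cells was sequenced in 3 LV-NC and 3 LV-*ATF7* libraries on an Illumina NovaSeq instrument. The authors deposited unnormalized counts of reads for each gene, and FPKM. The submitters' processing notes name the build GRCh38, and the aligner, counter, annotation and strandedness are not given in the sources used here. The authors' deposited fold change (a ratio), log2 fold change, p-value and adjusted p-value were not used. Every gene had at least 51 counts over the libraries. Each count or FPKM column had its sample.

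Counts were scaled by TMM and compared between the labeled groups with edgeR 4.0.16 in R 4.3.3 (glmQLFit, glmQLFTest, ~ group, filterByExpr), adjusting p-values by Benjamini-Hochberg over 12462 genes. A prior count of 2 was set only for the log2 CPM used in correlations and in the comparison of patterns. Left out were 37 genes with too few counts. The standard error was the log2 fold change over the square root of F. 95% intervals used the fit's degrees of freedom. Lengths came from GENCODE release 29, where 12485 gene identifiers were found. Genes named are the 7 members, up to 2 rises and 2 falls per list past 0.05 with no overlap and at least 50 counts on average, and fixed regulators, clients and candidates. *DNMT3A* and *HDAC2* were named after their values were seen. Some of these genes and lists are not reported here. The 7 members and the gene lists were chosen with earlier results of these data known. Shared replicate numbers did not pair the libraries.

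Alternatives were DESeq2 1.42.0, upper quartile scaling, scaling by library size only, no filter, 10 counts in every library, limma 3.58.1 voom with sample weights, a replicate block and each library left out. On simulated data with the design of this comparison 199 of 200 changed genes were called over 12462 genes, with 5.24% of calls on unchanged ones. The simulation gave every gene the same dispersion, changed only those 200 genes and held no odd library. In the real libraries 67.6% of genes were called and LV-NC replicate 1 stood apart, so these rates may not hold there. A planned protein alignment was replaced by coding bases from GENCODE. Scripts ran in Python 3.11.15.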

Additional observations from a re-analysis of the deposited data

How the results depend on the processing

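*YWHAH*, *SFN*, *YWHAZ* and *YWHAG* kept their direction and call under all 13 alternatives, with log2 fold changes of -1.33 to -1.14, 1.17 to 1.59, -0.89 to -0.69 and -0.61 to -0.43. Leaving out 1 library gave *YWHAE* -0.60 to -0.37, *YWHAQ* -0.34 to -0.10 and *YWHAB* -0.00059 to 0.063. *YWHAQ* was called at -0.30 with voom weights, which give an odd library less weight. *YWHAB* turned sign at -0.12 with library size only, *FOXO3* turned to -0.11 there and ranged from -0.030 to 0.080 with 1 library left out, and *FOXO1* turned to 0.055 with voom weights and ranged from -0.12 to 0.014 with 1 left out. *FOXO1* and *FOXO3* were not called under any alternative. With voom weights 13 regulators of *SFN* were called, in a fit that called 83.4% of all genes. With 1 library left out 7 to 12 were called, in fits that called 58.3% to 80.1% of all genes. All libraries gave 7, where 67.6% of all genes were called. The *YWHAH* share difference was -1.85 points with deposited FPKM. The cause of these shifts was not tested. Over the alternatives 4 to 6 of the 7 genes and 7290 to 10391 of all genes were called.

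Replicate numbers are shared across groups, but deviations of same-numbered libraries correlated by 0.058, -0.021 and 0.065, so the numbers were not taken as pairs. The fit with a replicate block called 8210 genes and changed no 14-3-3 call (*YWHAH* -1.17, *YWHAE* -0.41). With library size only, 42.4% of calls were higher, against 51.3%. The lowest count of a member in a library was 944. With 3 libraries per group exact tests could not go below p = 0.10.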
